A study of Xenopus laevis with 2 samples.

Results

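The spliceosome removes introns from pre-mRNA. Its core is a set of small nuclear ribonucleoproteins, each a small nuclear RNA with a ring of Sm or LSm proteins and particle-specific proteins, which assemble on the 5' splice site, the branch point and the 3' splice site, rearrange and catalyse both steps of splicing. SR proteins and heterogeneous nuclear ribonucleoproteins (hnRNPs) bind exons and introns and set which splice sites are used. In the early frog embryo these genes are broadly expressed.

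The genes described here were chosen by a rule on symbols: probe sets with a single gene symbol that names an SR or Tra2 protein, an hnRNP, an Sm, LSm or other snRNP protein, a PRPF, CWC or numbered RBM protein (rbm20 and rbm24 left out), U2AF, SF1, MAGOH, RBMX, DHX15 or AQR. Earlier results of these data were known when the members were chosen. The rule found 126 genes with 184 probe sets, of 7531 genes with 9304 single-symbol probe sets on the array. Core snRNP proteins made up 41 of the genes and regulatory factors 59, and the other 26 act in splice site recognition, assembly and catalysis, in the exon junction complex or as other LSm proteins. Xenopus laevis has a long and a short subgenome, and the copies of a gene, marked .L and .S, were counted separately. A symbol rule takes in some genes whose main role lies elsewhere, such as rbm19, rbm28 and rbm34 of the nucleolus.

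The study hybridised RNA from dorsal posterior pieces of neurulae, described by the submitters as mainly mesoderm, to Affymetrix Xenopus laevis arrays. One array held embryos depleted of Derriere (gdf3), a TGF-beta family ligand, by 2 ng of antisense morpholino placed laterally into both dorsal blastomeres at the 4-cell stage with GFP as a tracer. The other held wildtype embryos. Pieces of both groups were taken at stage 18. The labels say neither whether wildtype embryos were injected nor how many embryos were pooled. With 1 array for each group, array and condition cannot be told apart, differences could not be checked against replicates and are given as sizes without p-values. Precision is limited by this number of arrays.

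The derriere transcript gdf3.S itself read 2318.6 in the array labelled Derriere depleted and 552.0 in the array labelled wildtype. The target's RNA was thus higher under the label of depletion. Arrays read RNA and not protein, so whether Derriere protein was depleted was not tested. Every direction given here is tied to the label only. Median signals over all frog probe sets were 74.1 and 75.4 in that order. Marker genes differed between the arrays as well. Marker lists had 8 of 9 entries on the array for epidermis, 8 of 11 for posterior mesoderm, 4 of 5 for endoderm, 9 of 11 for muscle, 5 of 7 for notochord, 8 of 8 for neural plate and 2 of 5 for blood and endothelium. Of the kept marker genes, 7 of 9 for epidermis, 6 of 9 for posterior mesoderm and both for endoderm had ratios above 0, while 7 of 11 for muscle, 6 of 6 for notochord and 4 of 7 for neural plate had ratios below 0. Summed marker signals were 14788 in the array labelled Derriere depleted against 14910 in the array labelled wildtype for epidermis, 9055 against 7776 for posterior mesoderm, 413 against 257 for endoderm, 6116 against 7490 for muscle, 1278 against 1594 for notochord and 1680 against 1879 for neural plate, and the 3 blood genes on the array summed to 19.5 against 46.8 and none passed the signal filter. The endoderm genes gata4.L and gata4.S and the muscle gene tnnc1.L were at or under the signal floor of 19.7 in both arrays. A filter on mean signal can pass a gene through its brighter array alone. Of 7 endoderm genes on the array 2 were kept, so their shared sign does not speak for the list. The kept sox17a.L read 147.8 in the array labelled Derriere depleted and 56.2 in the array labelled wildtype, and sox17b.1.S 160.45 and 68.1. Among those under the filter, gata6.S read 8.7 and 23.7 in the same order, gata6.L 48.3 and 48.6 and sox17a.S 42.9 and 34.9. The 3' to 5' signal ratio was lower in the array labelled Derriere depleted for 3 of 4 frog control transcripts, at 24.3 against 32.3 in the array labelled wildtype for Gapd. It was also lower for the spiked thr control, at 1.33 against 6.55 in the same order, and 11 of 12 spiked poly-A control probe sets were lower, with a median log2 ratio of -0.90. The part that tissue composition, RNA quality or labelling has in the splicing gene ratios was not tested. In such tissue RNA, fewer cells of a type and less RNA per cell cannot be told apart.

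Transcripts of the splicing genes differed little between the arrays, as did those of most genes measured. Log2 ratios lay within 0.3 of 0 for 79.8% of the kept members and 70.5% of all genes. Ratios are log2 of the signal in the array labelled Derriere depleted divided by that in the wildtype one, centred on all kept probe sets, and a probe set was kept where its mean signal reached the median over all of them. Of the 126 genes, 119 passed this filter with 164 of the 184 probe sets. The median ratio of the 119 was 0.05, with an SD of 0.23 between genes, beside -0.01 and 0.33 over all 4543 genes measured. In all, 0 members were 2-fold or more higher, where 0.374% of all genes were, and 0 were 2-fold or more lower, where 0.242% were. With shares this small, a count of 0 among 119 genes does not set the members apart. At 1.5-fold or more, 0 members were higher, against 2.00% of all genes, and 1 was lower, against 3.08%.

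The signs of the small ratios were nearly balanced. Of the 119 genes 65 were above 0, a share of 54.6% beside 49.2% of all genes, and 54 were below 0, where 50.8% of all genes were. Splicing genes were mostly bright, with 100 of the 164 kept probe sets in the highest of 4 signal bins. In that bin the interquartile range of the ratio was 0.28 over member probe sets and 0.32 over all single-symbol probe sets. In the bins below, from the brightest down, it was 0.34 over 38 member probe sets and 0.37 over all, 0.46 over 18 and 0.42 over all, and 0.31 over 8 and 0.48 over all, so members were not narrower in every bin.

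A rough yardstick for the spread of ratios within a gene comes from genes read by several probe sets on the same RNA. Their pooled SD was 0.19 over the 30 member genes with more than 1 kept probe set and 0.23 over 580 genes of the whole array. This spread can also take in true differences between the transcripts that the probe sets of a gene read. It leaves out error shared by a gene's probe sets on an array, and any variation from embryo to embryo. Beyond 2 of these pooled SDs for all genes, 0.46 on the log2 scale, lay 6 members, with the limit chosen after the values were seen. The 3 on the higher side were prpf18.L, cwc25.S and sf3b4.S, against 4.84% of all genes on that side, and the 3 on the lower side were sf3b5.S, lsm2.L and hnrnpc.L, against 7.20%. The shares of members were 2.52% on each side. These shares were not matched for signal or for the number of probe sets averaged. Members were mostly in the brightest bin, where the interquartile range over all was 0.32, against 0.48 in the dimmest. The lower shares therefore do not set the members apart.

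**Figure D1:**
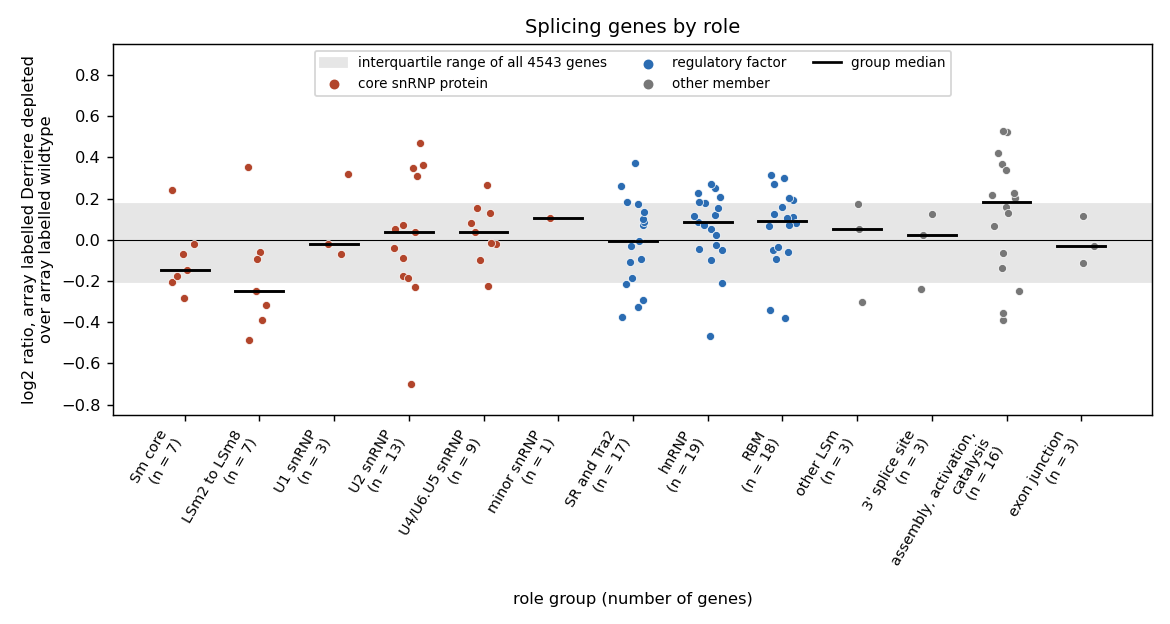
Log2 ratio of each of the 119 kept genes, array labelled Derriere depleted over array labelled wildtype, by role group, with black bars at the group medians and grey for the interquartile range of all 4543 genes. Of the 119 points 95 lie within 0.3 of 0, the LSm2 to LSm8 and Sm groups sit lowest with medians of -0.25 and -0.15, and sf3b5.S at -0.70 is the lowest point.

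The medians of core snRNP proteins and regulatory factors lay on opposite sides of 0 by small amounts. The 40 kept core genes had a median ratio of -0.03, with 24 below 0 and 16 above. The 54 kept regulatory genes had a median of 0.08, with 21 below 0 and 33 above. The difference of medians, core minus regulatory, was -0.11, and as a difference of means it was -0.06. Without the RBM genes among the regulatory factors the difference of medians was -0.10. Interquartile ranges of the core genes, from -0.18 to 0.11, and of the regulatory genes, from -0.06 to 0.18, overlapped.

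Of the 24 core genes below 0, 12 were among the 14 kept genes of Sm or LSm2 to LSm8 ring proteins, whose median was -0.16. The other 12 were among 26 kept genes of other core proteins. Those had 14 genes above 0 and a median of 0.04, on the same side as the regulatory factors. Of all genes 50.8% were below 0. The 14 ring genes join the role groups with the lowest medians, so this split follows the values. Setting them apart raises the median of the other core genes by construction, and no conclusion is drawn from it. Sm proteins form the ring around the U1, U2, U4 and U5 RNAs, and 6 of their 7 kept genes were below 0, with a median of -0.15. The lowest, snrpg.S, read 3462.8 in the array labelled Derriere depleted and 4186.5 in the array labelled wildtype, a log2 ratio of -0.28. Both copies of snrpb had like ratios, -0.20 for snrpb.L and -0.17 for snrpb.S. The copies of snrpd3 did not, since snrpd3.L read 503.7 and 553.7 in the same order, a ratio of -0.15, while snrpd3.S read 232.2 and 195.2, a ratio of 0.24. Neither snrpf.S at -0.07 nor snrpd1.L at -0.02 was far from 0.

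LSm2 to LSm8 form the ring at the 3' end of U6 RNA. Of the 7 kept genes 6 were below 0 and 1 above, where 50.8% of all genes were below 0. The median of -0.25 was the lowest of the role groups. For lsm2.L the first probe set read 418.5 in the array labelled Derriere depleted and 573.5 in the array labelled wildtype, and the second read 932.3 and 1322.1 in that order. Their ratios of -0.46 and -0.51 were close to each other, and the gene's mean was -0.49, or 1.40-fold lower. The 3 probe sets of lsm8.S were all lower too, with 100.8 against 131.1, 416.9 against 479.3 and 1063.9 against 1574.3, array labelled Derriere depleted against array labelled wildtype, and ratios that spread from -0.57 to -0.21. The second and the last carry the same target name, so they are not independent. Without the last, an _x_at probe set, the ratio of lsm8.S was -0.30. Single probe sets gave -0.32 for lsm3.S, -0.25 for lsm5.L and -0.06 for lsm6.S, and a pair gave -0.09 for lsm7.L. The exception, lsm4.S, read 161.2 in the array labelled Derriere depleted and 125.3 in the array labelled wildtype, a ratio of 0.35.

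U1 recognises the 5' splice site. Of its 3 kept protein genes, snrpa.S, which binds a stem-loop of U1 RNA, read 4784.5 in the array labelled Derriere depleted and 3807.5 in the array labelled wildtype, a ratio of 0.32. The 70K gene snrnp70.L at -0.07 and snrpc.S at -0.02 stayed near 0. The group median of -0.02 was 0.02 after quantile normalization or loess, so it carries no direction.

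U2 proteins, which bind the branch point, had the widest spread of the core groups, with an SD of 0.32 over 13 genes. The lowest and the highest both belonged to SF3b, the complex that holds the branch point adenosine. The small SF3b subunit gene sf3b5.S, read by 1 probe set, gave 2960.1 in the array labelled Derriere depleted and 4784.2 in the array labelled wildtype. That ratio of -0.70, or 1.63-fold lower, was the largest in size of all members and the only one past 1.5-fold. In contrast sf3b4.S read 711.0 against 510.7 in the same order, a ratio of 0.47, or 1.38-fold higher. A dim second probe set of sf3b4.S, 23.5 against 38.4, was under the filter, and with it the gene's ratio was -0.12. The other copy, sf3b4.L, read 632.4 in the array labelled Derriere depleted and 668.4 in the array labelled wildtype, a ratio of -0.09.

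Other SF3 subunits had ratios from -0.19 to 0.36. The first probe set of sf3b2.L gave 888.4 in the array labelled Derriere depleted and 623.1 in the array labelled wildtype, the second 502.5 and 429.1, and the gene's mean ratio was 0.36. The SF3a subunit sf3a1.L read 1095.9 against 856.3 in the same order, a ratio of 0.35, while sf3a2.S gave 0.04, sf3a3.S -0.18 and sf3b3.L 0.07. The scaffold subunit sf3b1.S, which also contacts the branch helix, has 3 probe sets that disagree: the brightest read 3693.2 and 3075.1 in the same order, a ratio of 0.26, and the dimmer ones gave -0.18 and -0.19. The dimmer ones carry the same target name, so they are not independent. The mean of -0.04 for sf3b1.S therefore has no settled sign, and with the brightest probe set in place of the mean it was 0.26. Among the smaller proteins sf3b6.S gave -0.19. Of the U2-specific pair, snrpb2.L gave 0.05 and snrpb2.S -0.23. The partner snrpa1.S averaged 0.31 over probe sets at 0.02, 0.17 and 0.74, the widest disagreement among kept probe sets of a member. Those at 0.17 and 0.74 carry the same target name, so they are not independent. Without the one at 0.74, an _x_at probe set, the ratio of snrpa1.S was 0.10. A dim further probe set read 32.8 in the array labelled Derriere depleted and 42.7 in the array labelled wildtype. It was under the filter, and with it the gene's ratio was 0.14.

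The U4/U6.U5 tri-snRNP brings in the U6 RNA that forms the active site. Its 9 kept genes had a median ratio of 0.04 and an SD of 0.15, with extremes of -0.22 and 0.27. At the top, snrnp200.L, the helicase that unwinds U4 from U6, read 1521.2 in the array labelled Derriere depleted and 1255.5 in the array labelled wildtype. At the bottom was the U4/U6 protein gene prpf4.L with 1016.1 against 1179.6. The gene of PRPF8, the protein that cradles the active site, was almost equal, with prpf8.S at 1377.8 against 1335.1 and a ratio of 0.04. For the minor spliceosome, which removes a rare class of introns, the only kept gene snrnp48.L read 298.5 against 275.9, a ratio of 0.10, and snrnp35.L was under the floor in both arrays.

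Factors of assembly, activation and catalysis had the highest median of the 13 role groups, 0.18 over 16 genes. Of these 11 were above 0, where 49.2% of all genes were. The highest member of all, prpf18.L, a factor of the second catalytic step, read 1424.0 in the array labelled Derriere depleted and 981.0 in the array labelled wildtype, a ratio of 0.53 or 1.44-fold higher. Next came the gene of the first-step factor CWC25, where cwc25.S read 470.1 against 325.2, a ratio of 0.52, and cwc25.L 564.7 against 482.9, a ratio of 0.22. Both copies of this gene thus had ratios above 0. The cyclophilin-type gene cwc27.S gave 0.42, from 156.9 against 116.3. A pair of RNA-binding splicing factor genes followed: rbm17.L at 0.37, with 222.5 against 171.6, and rbm22.S, which touches the catalytic RNA, at 0.34, with 1840.9 against 1448.5.

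Of the 16 genes 5 were below 0. The gene cwc22.S, whose protein brings the exon junction complex to the spliceosome, read 134.8 in the array labelled Derriere depleted and 175.6 in the array labelled wildtype, a ratio of -0.39. The kinase gene prpf4b.L, which acts on the tri-snRNP, gave -0.35 over probe sets at -0.22 and -0.49, and prpf4b.S gave -0.14. The gene prpf38a.S, of a factor of the pre-catalytic spliceosome, read -0.25. The scaffold ubiquitin ligase prpf19.L averaged -0.06 over probe sets at 0.13 and -0.25. The disassembly helicase dhx15.L was higher at 0.23, and the intron-binding helicase aqr.L averaged 0.16 over 3 probe sets that were all above 0. Those of aqr.L at 0.16 and 0.29 carry the same target name, so they are not independent, and the brightest gave 0.03.

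**Figure D2:**
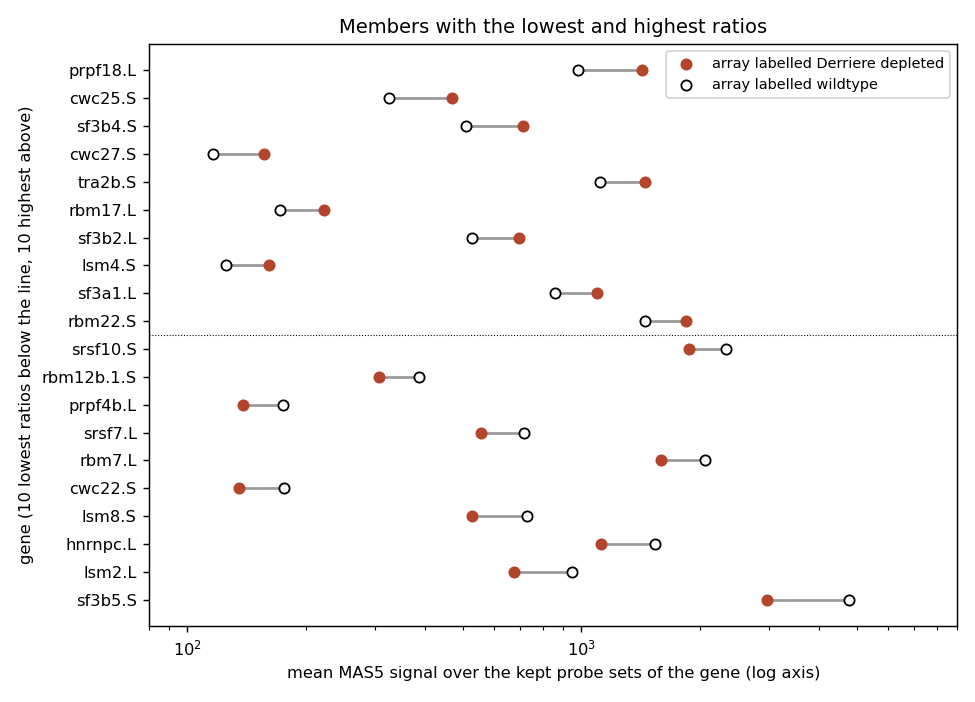
Mean MAS5 signal, on a log axis, of the 10 members with the lowest and the 10 with the highest ratios, in the array labelled Derriere depleted (filled) and the array labelled wildtype (open). The gap is widest for sf3b5.S, at 2960.1 against 4784.2, and every other gap is under 1.5-fold.

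For the proteins that first mark the 3' splice site, ratios were small. Probe sets for u2af2.S, whose protein binds the polypyrimidine tract, gave 822.2 in the array labelled Derriere depleted against 1136.2 in the array labelled wildtype and 616.1 against 614.2. Their ratios of -0.48 and 0.00 disagreed, with a mean of -0.24. The AG-binding partner u2af1.S gave 0.13 and the branch point binding gene sf1.S 0.02. Exon junction complex genes, deposited on mRNA after splicing, ranged from magoh.L at -0.11 to rbm8a.S at 0.11, with rbm8a.L at -0.03. Their median of -0.03 was 0.05 after quantile normalization or loess. Of the LSm proteins outside the U6 ring, lsm12.L gave -0.30, lsm14b.L 0.05 and lsm14a.S, a gene of cytoplasmic RNA granules, 0.17.

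SR and Tra2 proteins, which bind exonic enhancers and promote exon inclusion, divided evenly. Of 17 genes 8 were above 0 and 9 below, with a median of -0.01 that was 0.08 after quantile normalization. The highest was tra2b.S, an activator of alternative exons, with 1450.7 in the array labelled Derriere depleted and 1113.0 in the array labelled wildtype, a ratio of 0.37. The related tra2a.L gave 0.14 and its copy tra2a.S -0.21. The lowest was srsf7.L, at 556.8 against 716.9 and a ratio of -0.37. Its copy srsf7.S read 3771.4 against 3763.2, a ratio of -0.01. Below 0 as well was srsf10.S, a splicing repressor when dephosphorylated, at 1875.7 against 2334.0 and a ratio of -0.32.

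Several SR genes had more than 1 probe set or both copies kept. For srsf1.L, the founding SR protein gene, 3 probe sets gave 2562.1 in the array labelled Derriere depleted against 2471.7 in the array labelled wildtype, 4226.2 against 4070.3 and 104.3 against 95.2, with ratios from 0.04 to 0.12. The first and second of these carry the same target name, so they are not independent. The ratio of srsf3.S was -0.09. The 3 probe sets of srsf5.S, which carry the same target name and are not independent, ranged from 0.00 to 0.21 with a mean of 0.09. Those of srsf2.L pulled apart, at 0.18 for one, with 323.7 against 283.7, and -0.24 for the other, with 12766 against 14999. Both copies of srsf6 were slightly below 0, at -0.11 for srsf6.L and -0.19 for srsf6.S.

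The hnRNP genes had 13 of 19 ratios above 0, or 68.4% beside 49.2% of all genes, and a median of 0.08. Proteins of this class coat nascent transcripts and often repress splice sites. The kept A and A/B genes were all above 0: hnrnpa1.L averaged 0.18 over 3 probe sets, hnrnpa1.S 0.23 over 4, hnrnpa0.L and hnrnpa0.S gave 0.18 and 0.05, hnrnpa3.S 0.25 and hnrnpab.L 0.12. All 7 probe sets of hnrnpa1 lay between 0.06 and 0.35, and one of hnrnpa1.S read 6316.2 in the array labelled Derriere depleted and 5550.6 in the array labelled wildtype. Near-identical copies can share signal, so these probe sets are not independent. The highest hnRNP gene was hnrnph3.L, which averaged 0.27 over 4 probe sets from 0.05 to 0.39. Its probe sets at 0.38 and 0.39 carry the same target name, so they are not independent. Without _x_at probe sets the ratio of hnrnph3.L was 0.22. The scaffold gene hnrnpu.S averaged 0.11 over 4 probe sets, of which 1 was below 0, and hnrnpu.L gave 0.02.

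The lowest regulatory gene was also an hnRNP. The gene hnrnpc.L, whose protein binds uridine tracts, read 1123.4 in the array labelled Derriere depleted and 1540.8 in the array labelled wildtype, a ratio of -0.46 or 1.38-fold lower. Its copy hnrnpc.S read 341.3 against 293.7, a ratio of 0.21. The difference between these copies, 0.67, was the widest of the homeolog pairs. Other hnRNP genes below 0 were hnrnpm.L at -0.21, hnrnpk.S at -0.10, hnrnph1.L at -0.05 and hnrnpd.L at -0.04. Probe sets of hnrnpr.S ranged from -0.41 to 0.24, so its mean of -0.02 has no settled sign, and it was 0.10 for the brightest probe set. The one at -0.41 was a dim _x_at probe set, with 86.6 against 114.2. Another probe set with the same target name, under the filter, gave 0.20. The 3 probe sets of rbmx.S, the gene of hnRNP G, averaged 0.07. Those at 0.20 and -0.02 carry the same target name, so they are not independent.

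RBM genes form a mixed class named for an RNA-binding motif. Of 18 kept genes 12 were above 0, or 66.7% beside 49.2% of all genes, with a median of 0.09. The gene rbm14.S, of a paraspeckle protein, was highest with 270.0 in the array labelled Derriere depleted and 216.0 in the array labelled wildtype, a ratio of 0.31, and its copy rbm14.L gave 0.11. Lowest was rbm7.L, of a nuclear RNA decay complex, at 1591.2 against 2058.7 and a ratio of -0.38. The linked-name genes rbm12b.1.S, rbm12b.2.L and rbm12b.3.L gave -0.34, -0.05 and 0.27. The nucleolar rbm19.L, rbm28.L and rbm34.L gave 0.16, 0.21 and 0.13, and the splicing regulators rbm5.L, rbm5.S and rbm25.S gave -0.06, -0.04 and 0.19.

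The 7 members under the filter were dim in both arrays. They were rbm11.L, hnrnpa2b1.L and snrnp35.L, all under the floor of 19.7 in both, and rbm15.S, rbm23.L, hnrnpa3.L and lsm14b.S. Of these, rbm15.S read 68.8 in the array labelled Derriere depleted and 53.9 in the array labelled wildtype, and hnrnpa3.L read 61.8 against 61.6. Their low signals leave the ratios uncertain.

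Homeologs did not always share a direction. Both copies were kept for 20 member genes, and 13 of these pairs, 65.0%, had ratios of the same sign, beside 61.6% of the 524 pairs among all genes. Copies of hnrnpa1 and of hnrnpu were read in part by probe sets with the same target name, so they are not independent. Among pairs of unlike sign, rbm8a and snrnp40 differed by 0.15 and the other pairs by 0.28 or more. The pooled SD of 0.23 is for the ratio of 1 probe set and not for a difference between 2 copies. It therefore does not tell which of these differences go beyond measurement spread. The median difference within a pair was 0.15 for members and 0.21 for all genes. A difference of 0.5 or more was seen in 2 member pairs, hnrnpc at 0.67 and sf3b4 at 0.56. By subgenome, the 59 .L genes had a median ratio of 0.05 and the 60 .S genes 0.06.

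**Figure D3:**
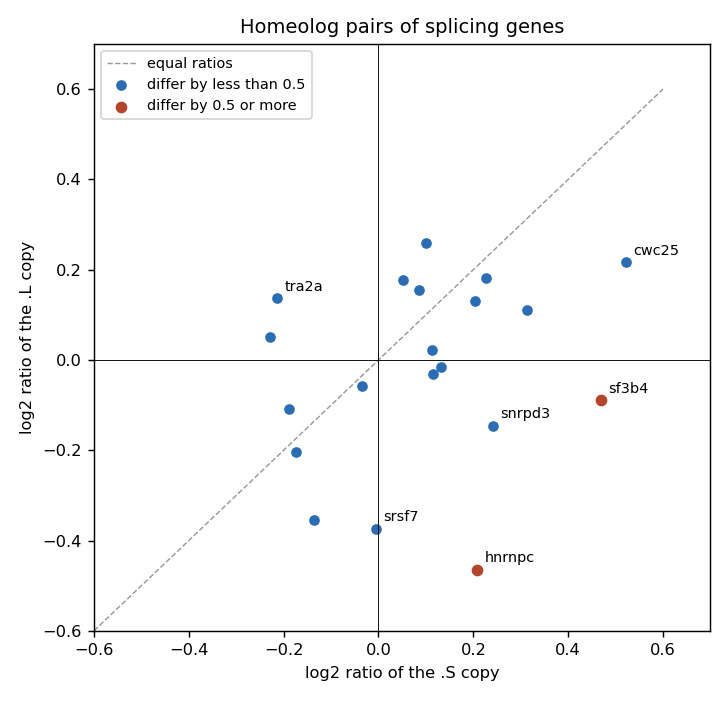
Log2 ratio of the .L copy against that of the .S copy for the 20 splicing genes with both copies kept, array labelled Derriere depleted over array labelled wildtype; the dashed line marks equal ratios. The pairs for hnrnpc and sf3b4 lie farthest from the line, with the .S copy above 0 and the .L copy below.

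Other splicing genes, taken from a list of helicases, NineTeen-complex, export, snRNP-assembly and tissue-specific splicing factors, were set beside the members. Of 130 entries 83 had a kept gene, giving 104 genes with a median ratio of 0.07, 63 above 0 and 41 below. The shares above and below 0 were 60.6% and 39.4%, beside 49.2% and 50.8% of all genes. The interquartile range of these 104 ratios was 0.37, beside 0.28 for the members and 0.38 for all genes. These widths were not matched for signal or for the number of probe sets averaged. Over all single-symbol probe sets the range narrowed with signal, from 0.48 in the dimmest bin to 0.32 in the brightest. With shares this small among all genes, 2.00% higher and 3.08% lower at 1.5-fold or more, counts among 104 genes do not set the list apart. Past 1.5-fold were 0 of the 104 on the higher side and 1 on the lower. That one was celf2.L, an RNA-binding regulator of muscle and neural splicing, with 133.0 in the array labelled Derriere depleted and 262.0 in the array labelled wildtype, a ratio of -0.99 or 1.98-fold lower. Next lowest were the export complex genes thoc2.S at -0.53 and thoc7.S at -0.44. Highest were srrm1.L, an SR-rich splicing coactivator, at 0.58, the kinase gene clk2.S, which phosphorylates SR proteins, at 0.55, and the helicase gene ddx5.L at 0.53. Their other copies had smaller ratios, 0.20 for srrm1.S, 0.18 for clk2.L and 0.02 for ddx5.S.

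A pair of other gene classes, chosen with earlier results known, is given for comparison as a description. Cytoplasmic ribosomal protein genes had a median of -0.13, with 49 of 71, or 69.0%, below 0. Genes of RNA polymerase II, TFIID and Mediator had a median of -0.11, with 26 of 40, or 65.0%, below 0. All genes had a median of -0.01, with 50.8% below 0. The highest gene of the polymerase list, taf15.S at 0.35, is also among the other splicing genes described above, so those lists overlap. The 119 splicing genes had a median of 0.05, with 54 below 0. Within the splicing genes the Sm and LSm2 to LSm8 groups had medians of -0.15 and -0.25. They are named here because their medians were the lowest of the role groups, so no likeness to the other classes is drawn. Whether these gene classes differ could not be tested with 1 array for each group.

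**Figure D4:**
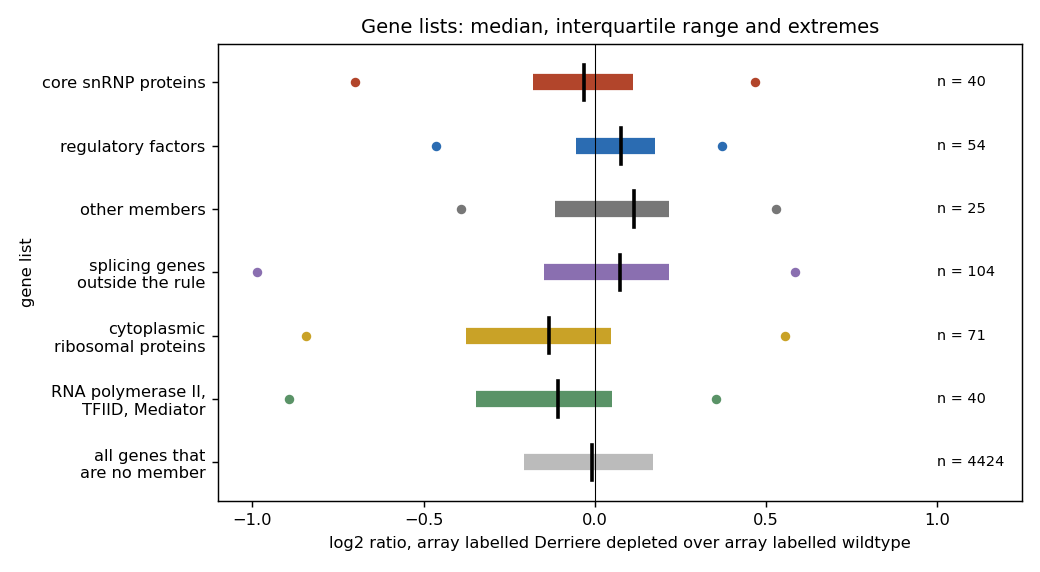
Median (black), interquartile range (bar) and lowest and highest gene (points, not drawn for the bottom row) of the log2 ratio in each gene list, array labelled Derriere depleted over array labelled wildtype. Regulatory factors, other members and the splicing genes outside the rule have medians from 0.07 to 0.11, core snRNP proteins -0.03, and the ribosomal and polymerase lists -0.13 and -0.11. The gene taf15.S is in both the polymerase list and the splicing genes outside the rule.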

How the data were processed

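Each deposited value was 1 probe set's intensity, on a linear scale; per the submitters' processing notes the tool was MAS5. No version, scaling target or detection call is given in the sources used here. RNA was Trizol-extracted, and 6 ug gave biotin-labelled cRNA, per the labels' protocols.

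Of 15611 probe sets, 120 controls were dropped. Signals under 19.7, the 25th percentile, were raised to it. Probe sets with a mean signal at or above the median were kept (7747), log2 ratios were centred on their median (a shift of 0.01), and kept probe sets of a gene were averaged. Names came from the platform annotation, and 184 of 184 member probe sets matched the Xenopus_laevis_v10.1 gene table by Entrez ID with 0 symbols changed. No sequence is shown. Members, role groups and lists were chosen with earlier results of these data known. Named were genes past 1.5-fold, the 10 highest and 10 lowest, the extremes of each role, genes with 3 or more probe sets, and copies or probe sets differing by 0.5 or more; further members and the listed splicing genes were added for completeness after their values were seen. The procedure was tested on simulated arrays. Differences planted there were larger than any member ratio, so the simulation does not cover differences of the size reported here. Python 3.11.15, numpy 2.4.6, pandas 2.3.3, statsmodels 0.14.6 and matplotlib 3.10.9 were used.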

Additional observations from a re-analysis of the deposited data

Results flagged for a closer look

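In data outside the comparison, 4 probe sets naming both copies of a member gene carried signal above the floor. The probe set for both copies of rbm8a read 314.1 in the array labelled Derriere depleted and 206.5 in the array labelled wildtype, a log2 ratio of 0.60. The single-copy probe sets were far brighter. For rbm8a.S the signals were 3189.7 and 2928.7 in the same order, a ratio of 0.11, and for rbm8a.L 6053.8 and 6150.6, a ratio of -0.03. The dim both-copy probe set carries the same target name as that of rbm8a.S, so they are not independent. The probe set for both copies of hnrnpa2b1, an hnRNP of the A/B class, read 4403.1 and 3579.0 in the same order, a ratio of 0.29, where the single-copy probe set of hnrnpa2b1.L was under the floor. For hnrnpa3 the ratio was 0.17, and for cwc15 it was -0.12, against 0.13 and 0.20 for the probe sets of cwc15.L and cwc15.S. These both-copy probe sets also share a target name with probe sets of hnrnpa3.S and cwc15.L, so they are not independent of them.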

How the results depend on the processing

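The 16 alternatives changed the floor, centring, normalization, filter, threshold, treatment of probe sets and copies, list summary or class definition; leaving out _x_at and _s_at probe sets, adding probe sets that name both homeologs, and leaving RBM genes out were chosen after seeing the data. No paired analysis was possible because neither group had a second array, and no replicate could be left out. The count past 2-fold was 0 in every setting. The count past 1.5-fold was 2 for probe sets taken one by one and 2 with the probe sets naming both homeologs. As list means, members read 0.022 and regulatory factors 0.034. Quantile normalization put SR and Tra2 genes at 0.082. Without a filter the U2 median was -0.031 and that of the other LSm genes -0.086, with dim probe sets of sf3b4.S and lsm14b.S added. The core minus regulatory difference ranged from -0.13 to -0.06 over 15 settings, the LSm2 to LSm8 median from -0.29 to -0.24 and the Sm median from -0.17 to -0.08. Of 47 named genes 43 kept their sign in all settings that measured them, and the others were sf3b4.S, sf3b1.S, srsf5.S and hnrnpr.S. Most of the 47 were picked as extremes of all members or of a role, on the same 2 arrays. For a gene read by 1 bright probe set, several settings return the same value. The ratio of sf3b5.S, for example, stayed at -0.70 without a floor and with the brightest probe set. The count of kept signs therefore does not measure how certain a sign is. Except for the values named, causes were not tested.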
